A study of Mus musculus with 2 samples.

Results

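The cytosolic tRNAs for phenylalanine (anticodon GAA, PheGAA), tryptophan (CCA, TrpCCA) and cysteine (GCA, CysGCA) were examined in small RNA of primary murine fibroblasts. In the mature tRNA table, 19 of 217 loci belonged to them, 3 of PheGAA, 5 of TrpCCA and 11 of CysGCA, chosen by the anticodon in the locus name and not by any measured value. These are amino acids with a single anticodon in the table, methionine and the queuosine tRNAs being set aside. The fibroblasts were grown from ears of C57BL/6 mice (C57BL/6-J in the study's methods) about 3 weeks old, held in G1 for 48 h with the CaMK-II inhibitor KN-93, and then transfected for 24 h. AF25-high cells received 3GA-AF25, an antisense oligonucleotide of the 3GA type against AF357425 that raises this snoRNA, at 200 nM. AF25-low cells received the gapmer GM-AF25, whose DNA core directs RNase H to the snoRNA and lowers it, at 500 nM. Each condition was 1 library, and a library with a control oligonucleotide was not analysed here, so the level of AF357425 cannot be told apart from the chemistry and dose of the oligonucleotide.

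Transfer RNAs carry amino acids to the ribosome and pair with the codon through the anticodon in the middle of the molecule. Nucleases such as angiogenin cut them into fragments, and in a small RNA library the reads of a tRNA are such fragments rather than whole tRNAs. PheGAA decodes UUC and UUU, carries the bulky base wybutosine beside its anticodon, and is the tRNA whose 3′ end primes reverse transcription of the IAP retrotransposons of mice. TrpCCA decodes UGG, the sole codon of tryptophan, and CysGCA decodes UGC and UGU. In human cells 5′ fragments of cysteine and alanine tRNAs, which begin with a run of G, are known to inhibit translation. PheGAA and TrpCCA are also known for 2′-O-methylation (2′Ome) of their anticodon loop, which the protein FTSJ1 (Trm7 in yeast) carries out without a snoRNA guide.

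AF357425, the snoRNA that differed between the libraries, is shown because it defines the comparison. It lies at chr12:109636012-109636084 on the plus strand of GRCm38, and its transcript of 73 nt in GENCODE M21 reads as follows, with the antisense element next to its D′ box in capitals.
AF357425: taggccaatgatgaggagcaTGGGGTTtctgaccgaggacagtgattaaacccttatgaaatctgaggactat
Reads of AF357425 itself were not analysed here, nor were the sequences of the nuclear tRNA genes of PheGAA, TrpCCA and CysGCA.

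The tRNA table held 689078 reads in AF25-high against 472550 in AF25-low cells, out of libraries of 28856715 and 29103700 reads. Values are given as RPM (reads relative to the size of the whole library), and differences as the ratio of AF25-high to AF25-low cells with an exact Clopper-Pearson 95% interval. The interval covers counting error only, and no test of the conditions was possible with 1 library each. All tRNAs together had a ratio of 1.47 (1.47 to 1.48), so scaling to the total of the tRNA table multiplies every ratio by 0.680, while the authors' normalised counts multiply it by 0.744 (a shift of -0.43 on the log2 scale). A ratio of 1.34 or 1.47 in RPM is therefore no difference on those scales. A higher RPM of a tRNA can come, among other sources, from more tRNA per cell or more cutting, which these data cannot tell apart. mRNA markers of fibroblasts were not measured in these libraries. Of 7 microRNA genes of mesenchymal cells, 4 were listed among the Ensembl noncoding RNAs, with 2431 reads in AF25-high against 2468 in AF25-low cells. Of 22 microRNA genes of blood, endothelial, epithelial, muscle and nerve cells, 1 was listed, Mir200a, with 6 and 0 reads. The study mapped most reads to microRNAs and counted them apart from these genes, so a gene that was not listed here may still be expressed.

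PheGAA showed the largest difference of the 3 tRNAs, and nearly all of it lay in 1 locus. It had 7466 reads in AF25-high against 2954 in AF25-low cells, or 259 RPM (exact Poisson 95% interval 253 to 265) and 101 RPM (97.9 to 105), a ratio of 2.55 (2.44 to 2.66). The locus chr14.trna457 had 7129 and 2685 reads, 247 and 92.3 RPM, with a ratio of 2.68 (2.56 to 2.80). It took 95.5% (95% to 95.9%) of the PheGAA reads in AF25-high cells and 90.9% (89.8% to 91.9%) in AF25-low cells. RefSeq places 1 phenylalanine tRNA gene on chromosome 14, n-TFgaa5 at chr14:118089525-118089597 of GRCm38, a gene of 73 bp that overlaps no gene of GENCODE M21.

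The other PheGAA loci differed far less between the libraries. The locus chr13.trna988 had 283 reads in AF25-high against 210 in AF25-low cells, giving a ratio of 1.36 (1.13 to 1.63), and chr19.trna108 had 54 and 59 reads, a ratio whose interval held 1 (0.923, 0.626 to 1.36). RefSeq has 2 phenylalanine tRNA genes on each of chromosomes 13 and 19, so these loci could not be tied to a single gene, and its genes on chromosomes 5 and 10 had no locus in the table. In the authors' normalised counts the chr14 locus stood at 6174 in AF25-high against 3100 in AF25-low, the chr13 locus at 245 and 242, and the chr19 locus at 46.8 and 68.1. The chr14 locus was thus higher in AF25-high on either scale, and the chr13 locus was level on the authors' scale. The chr19 locus stood lower in AF25-high on both, within counting error in RPM and on the authors' scale (0.686, 0.466 to 1.01). Scaled to the tRNA total its ratio was 0.628 (0.426 to 0.924).

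Set against each other within the same libraries, which needs no scaling, the ratio of the chr14 locus was 1.97 times that of the chr13 locus (exact 95% interval 1.63 to 2.38) and 2.90 times that of the chr19 locus (1.97 to 4.29). The chr13 and chr19 loci could not be told apart at this depth (1.47, 0.957 to 2.27). Without the chr14 locus PheGAA had 337 and 269 reads and a ratio of 1.26 (1.07 to 1.49). That falls below 1 when scaled by the authors' normalised counts, but within counting error. Its interval holds 1.34, which is equality on that scale. Where a read matched several loci the authors gave it to the most highly expressed one, so the split between loci that share sequence is uncertain, while their sum is not affected by that split.

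**Figure D1:**
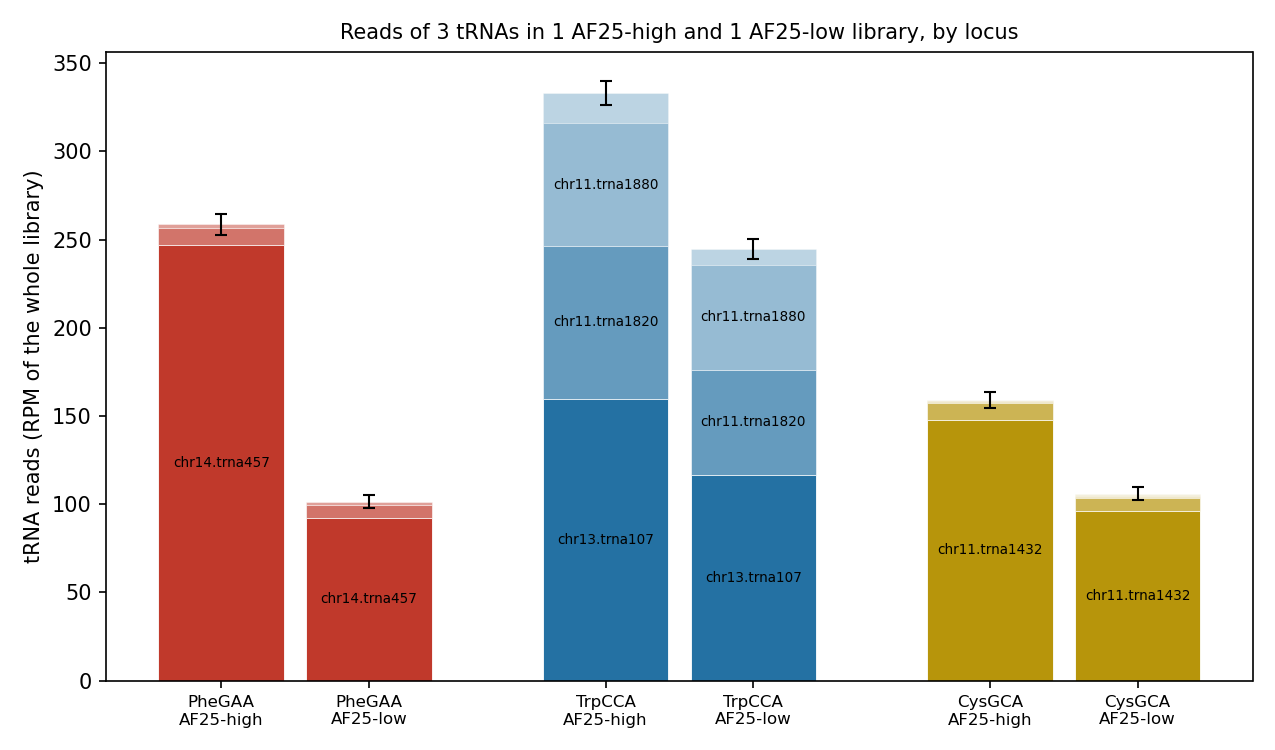
Reads of PheGAA, TrpCCA and CysGCA (vertical axis, RPM of the whole library) in the AF25-high and the AF25-low library, stacked by locus with the darkest shade for the locus with most reads. Error bars are exact Poisson 95% intervals of the total, which cover counting error only. PheGAA stood at 259 and 101 RPM, TrpCCA at 333 and 245 RPM and CysGCA at 159 and 106 RPM.

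TrpCCA was the most abundant of the 3 tRNAs in both libraries and showed a modest difference that was spread over its loci. It had 9608 reads in AF25-high against 7116 in AF25-low cells, or 333 RPM (326 to 340) and 245 RPM (239 to 250), a ratio of 1.36 (1.32 to 1.40). On the scale of the authors' normalised counts the ratio was 1.01 (0.982 to 1.04), and as a share of all tRNA reads TrpCCA was lower in AF25-high, at 1.39% against 1.51%.

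The reads of TrpCCA were divided among 4 loci, and another, chr10.trna1282, had 2 and 1 reads. The locus chr13.trna107 held 48.0% of them in AF25-high against 47.8% in AF25-low cells, with 4611 and 3398 reads and a ratio of 1.37 (1.31 to 1.43). On chromosome 11, chr11.trna1820 had 2500 and 1727 reads and a ratio of 1.46 (1.37 to 1.55), and chr11.trna1880 had 2006 and 1740 reads and a ratio of 1.16 (1.09 to 1.24). In AF25-low cells the latter was level with chr11.trna1820 (59.8 against 59.3 RPM), while in AF25-high cells chr11.trna1820 was ahead (86.6 against 69.5 RPM).

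The least abundant of the 4, chr10.trna857, had the highest ratio. It had 489 reads in AF25-high against 250 in AF25-low cells, giving a ratio of 1.97 (1.69 to 2.31), which was 1.44 times that of chr13.trna107 (1.23 to 1.70), 1.35 times that of chr11.trna1820 (1.14 to 1.60) and 1.70 times that of chr11.trna1880 (1.43 to 2.01). Its share of the TrpCCA reads was 5.09% in AF25-high against 3.51% in AF25-low cells. The ratio of chr11.trna1820 was 1.26 times that of chr11.trna1880 (1.15 to 1.37), whereas its excess over chr13.trna107 was within counting error (1.07, 0.988 to 1.15). The direction of chr11.trna1880 depended on the scale. It was above 1 in RPM and 0.865 with the authors' normalised counts. RefSeq has 8 tryptophan tRNA genes of 72 bp, 2 on chromosome 10, 4 on chromosome 11 and 2 on chromosome 13, and these overlap no gene of GENCODE M21.

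CysGCA had the most loci and the fewest reads in AF25-high cells, and the bulk of its reads again fell on 1 locus. It had 4594 reads in AF25-high against 3086 in AF25-low cells, or 159 RPM (155 to 164) and 106 RPM (102 to 110), a ratio of 1.50 (1.43 to 1.57). Its share of all tRNA reads was 0.667% in AF25-high against 0.653% in AF25-low cells. The locus chr11.trna1432 had 4265 and 2800 reads, 148 and 96.2 RPM, with a ratio of 1.54 (1.46 to 1.61). It took 92.8% (92.1% to 93.6%) of the CysGCA reads in AF25-high against 90.7% (89.7% to 91.7%) in AF25-low cells.

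Most cysteine tRNA genes of the mouse lie in a cluster on chromosome 6, where RefSeq has 48 of 56, 7 of them in an intron of the long noncoding RNA gene Gm16630. Chromosome 11 has 5, chromosome 9 has 2 and chromosome 17 has 1. The table listed 9 loci of chromosome 6 and 2 of chromosome 11, and those of chromosome 6 summed to 329 reads in AF25-high against 279 in AF25-low cells, giving a ratio of 1.19 (1.01 to 1.40). The cluster thus gave few of the CysGCA reads as they were assigned. Its most abundant locus, chr6.trna170, had 269 and 211 reads and a ratio of 1.29 (1.07 to 1.55), which is 0.956 with the authors' normalised counts. The ratio of chr11.trna1432 was 1.19 times as high, within counting error (0.987 to 1.45). The locus chr6.trna1014 had 24 and 15 reads, too few to give a direction (1.61, 0.813 to 3.31).

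The remaining 8 CysGCA loci had between 0 and 13 reads per library, and as a group they went the other way. They were grouped after their values were seen, so their intervals describe these reads and are no support for a direction. They came to 36 reads in AF25-high against 60 in AF25-low cells, giving a ratio of 0.605 (0.389 to 0.930), and 6 of the 8 had more reads in AF25-low. With 0 replaced by a floor of 3 reads, chr11.trna1442 (0 and 7 reads) and chr6.trna1020 (0 and 6) were 2.31-fold and 1.98-fold lower in AF25-high. The upper ends of their exact intervals were 0.700 and 0.857. The opposite case, chr6.trna1015, had 4 and 0 reads, 1.34-fold higher with this floor, and its interval held 1 (lower end 0.666). Against chr11.trna1432, the ratio of these 8 loci was 0.394 times as high (0.252 to 0.607). Rare loci of the tRNA table as a whole did not show this direction in RPM. The 68 loci with fewer than 20 reads in both libraries, these 8 among them, summed to 445 and 379 reads, a ratio of 1.18. More reads in AF25-high were found for 36 and fewer for 25. A ratio of 1.34 is equality on the scale of the authors' normalised counts, where the sum of the 68 thus fell below 1.

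**Figure D2:**
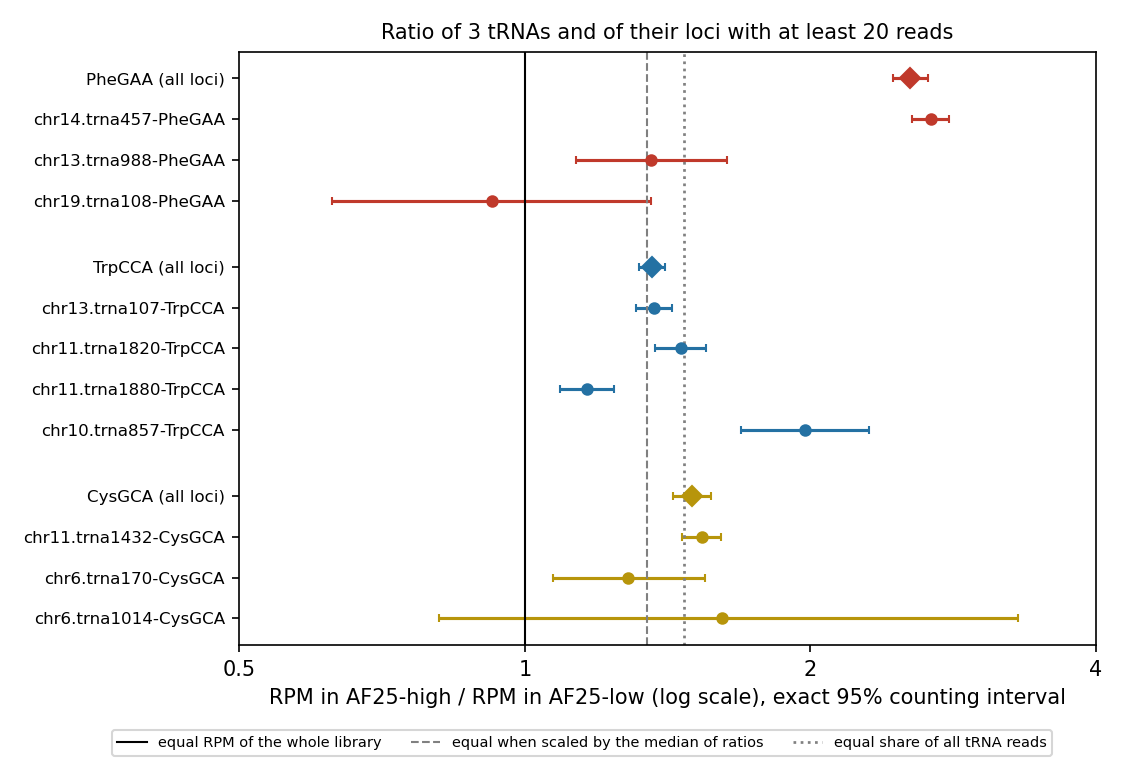
Ratio of AF25-high to AF25-low cells in RPM (horizontal log axis) for PheGAA, TrpCCA and CysGCA (diamonds) and for their 10 loci that reached 20 reads in either library (circles), with exact 95% counting intervals. Vertical lines mark equality in RPM (1), on the scale of the authors' normalised counts (1.34) and as a share of tRNA reads (1.47). The chr14 locus of PheGAA stood at 2.68, apart from the other 9, which lay between 0.923 and 1.97.

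In the 10 loci that reached 20 reads in either library, 1 (chr14.trna457) was at least 2-fold higher in AF25-high, against 20.8% of the 149 tRNA loci at this minimum. None was at least 2-fold lower, against 2.68% of the 149. The interval lay above 1 for 8 of the 10, against 63.1% of the 149, held 1 for 2, against 21.5%, and lay below 1 for 0, against 15.4%. The median log2 ratio of the 10 loci was 0.50, and that of the 149 loci was also 0.50. With the authors' normalised counts 0 of the 10 were at least 2-fold higher, against 4.7% of the 149. As a list, the loci of the 3 tRNAs were therefore near the middle of the table, with chr14.trna457 at rank 9 of 149 by ratio and chr19.trna108 at rank 115.

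**Figure D3:**
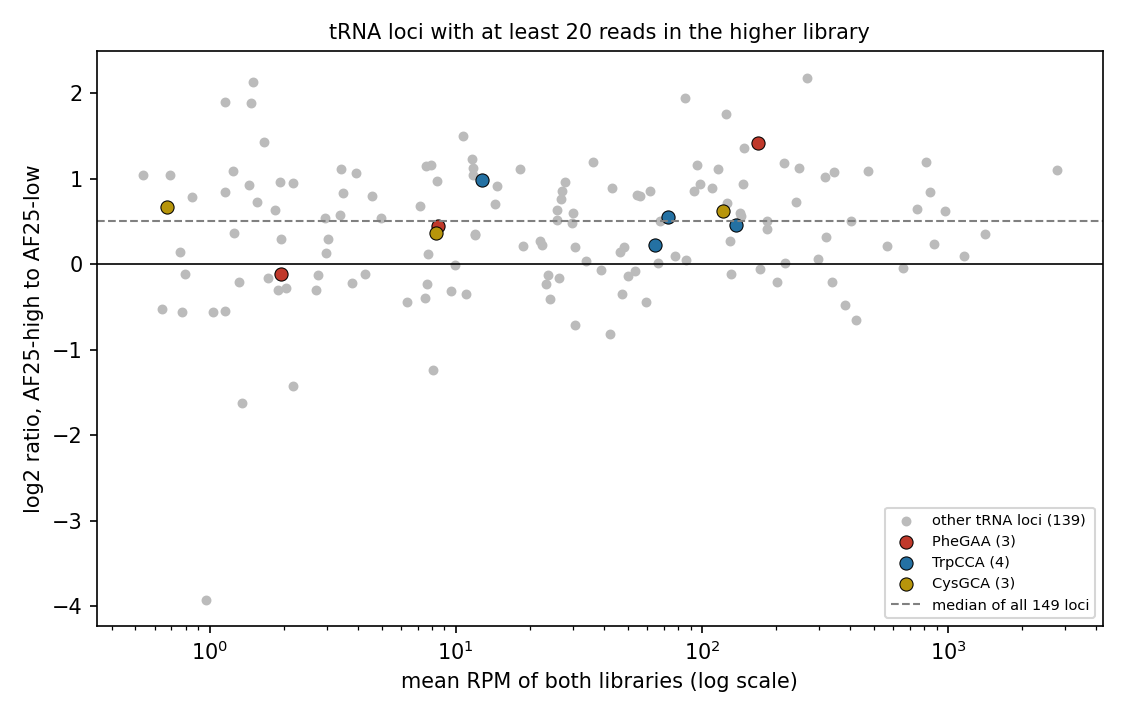
Log2 ratio of AF25-high to AF25-low cells (vertical axis, 0.5 reads added to both libraries) against the mean RPM of both libraries (log axis) for the 149 tRNA loci with at least 20 reads, with the loci of PheGAA, TrpCCA and CysGCA in colour. The dashed line is the median of all loci, 0.50. The loci of the 3 tRNAs lay on both sides of it, and chr14.trna457 was the highest of them.

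The 3 tRNAs together summed to 751 RPM in AF25-high against 452 RPM in AF25-low cells, 3.14% and 2.78% of all tRNA reads, with a ratio of 1.66 (1.63 to 1.70). The difference of 299 RPM was 3.91% of the difference of all tRNAs, and chr14.trna457 alone made up 51.8% of it. The ratio of PheGAA was 1.87 times that of TrpCCA (1.78 to 1.97) and 1.70 times that of CysGCA (1.59 to 1.81), and that of CysGCA was 1.10 times that of TrpCCA (1.04 to 1.17). These comparisons do not depend on the scaling but rest on the abundant loci. Without the most abundant locus of each, PheGAA was 0.932 times TrpCCA (0.787 to 1.10) and 1.09 times CysGCA (0.864 to 1.37), both intervals holding 1. TrpCCA was then 1.17 times CysGCA (0.988 to 1.38). Reads shared by several loci were given to the most highly expressed one. Leaving it out therefore also removes shared reads, and cannot show whether a difference belongs to 1 gene.

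Compared with the sum of all other tRNAs, PheGAA was 1.74 times as high in ratio (1.67 to 1.82), TrpCCA was 0.925 times (0.897 to 0.954) and the interval of CysGCA held 1 (1.02, 0.975 to 1.07). Among 48 anticodons that reached 50 reads in either library, PheGAA ranked 4 by ratio, CysGCA 22 and TrpCCA 24. PheGAA was the 1 of the 3 that was at least 2-fold higher, against 22.9% of the 48, and with the authors' normalised counts 0 of the 3 were, against 6.25%. All 3 had an interval above 1, against 79.2% of the 48, while 10.4% had an interval that held 1 and 10.4% one below 1. Of 40 anticodons with reads on more than 1 locus (at least 20 outside the most abundant), the most abundant locus had the higher ratio in 20. PheGAA had the second largest gap of the 40, 1.08 on the log2 scale, after AsnGTT with 1.47, while CysGCA had 0.41 and TrpCCA 0.014.

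**Figure D4:**
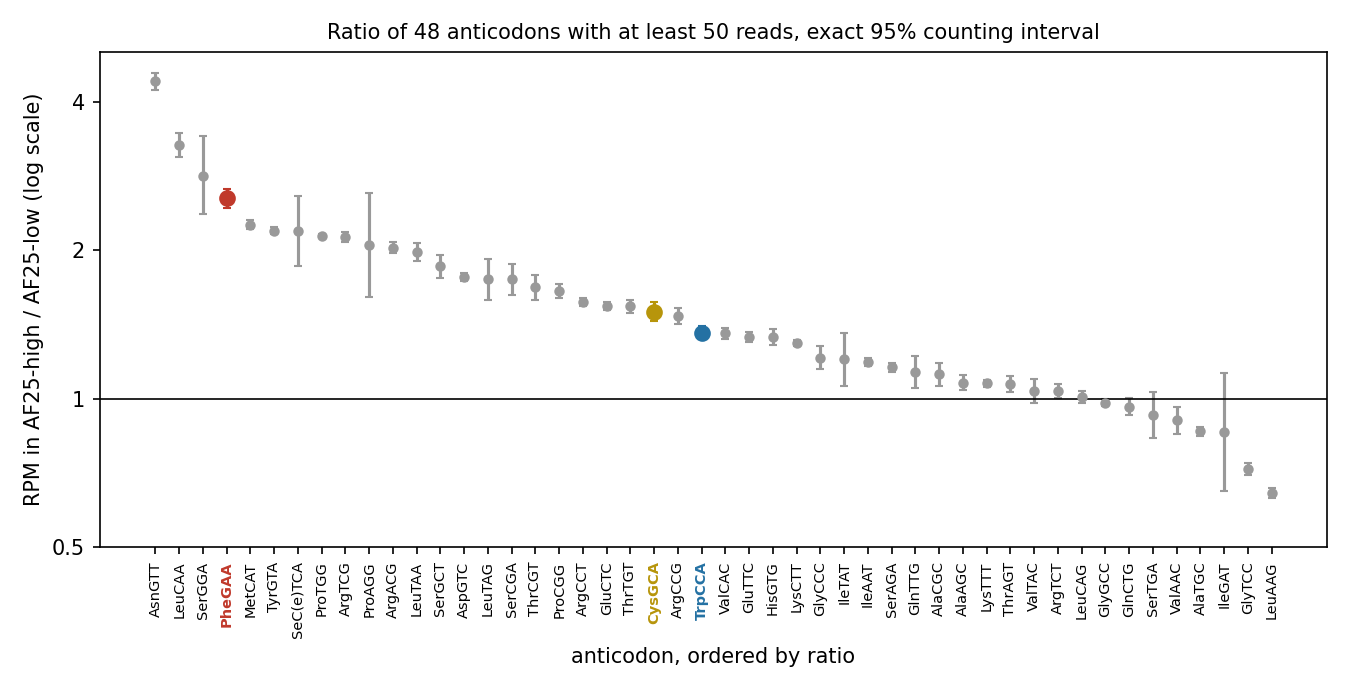
Ratio of AF25-high to AF25-low cells in RPM (vertical log axis) for the 48 anticodons that reached 50 reads in either library, ordered from highest to lowest, with exact 95% counting intervals. PheGAA (2.55) is the 4th from the left, and CysGCA (1.50) and TrpCCA (1.36) lie near the middle.

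In level, over genes of nearly equal length (70 to 73 bp in RefSeq for these tRNAs), TrpCCA ranked 21 of 52 in AF25-high cells and 20 in AF25-low cells, and CysGCA 33 and 30. PheGAA ranked 24 in AF25-high against 31 in AF25-low cells. In AF25-low cells PheGAA, with 2954 reads, could not be told apart from its neighbours CysGCA (3086 reads, 1.04 times as many, 0.993 to 1.10) and AsnGTT (2944 reads). In AF25-high cells the next below was LeuTAA with 7095 reads and the next above ProCGG with 8696 reads. PheGAA differed from both by more than counting error. TrpCCA in AF25-high cells could not be told apart from ThrTGT (9743 reads, 1.01 times as many, 0.986 to 1.04).

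Likeness to other anticodons was measured as the distance in log2 ratio, a single contrast between 2 libraries, among the 48 with at least 50 reads. Nearest to PheGAA were the serine tRNA SerGGA (ratio 2.83, 2.36 to 3.41), MetCAT (2.26, 2.21 to 2.30) and the tyrosine tRNA TyrGTA (2.19, 2.16 to 2.23). Nearest to TrpCCA were ValCAC, GluTTC and HisGTG, with ratios between 1.33 and 1.36. Nearest to CysGCA were ArgCCG, ThrTGT and GluCTC, with ratios between 1.47 and 1.54. PheGAA had no neighbour within 0.15 on the log2 scale, though the interval of SerGGA held the PheGAA ratio of 2.55. The neighbours of TrpCCA and CysGCA lay within 0.04. PheGAA ranked 4 of the 48 by ratio, where ratios lie further apart than around ranks 22 and 24 of CysGCA and TrpCCA.

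Groups of tRNAs that share a property with these 3 did not share a single ratio. The main anticodons of the other amino acids read by a single anticodon, or nearly so, in the table (AsnGTT, AspGTC, HisGTG, TyrGTA and MetCAT, leaving out HisATG with 1 and 8 reads) summed to a ratio of 2.12 (2.10 to 2.14), with 15 of 17 loci higher and a median log2 ratio of 0.84, or 11 of 17 higher with the authors' normalised counts. The tRNAs whose 5′ fragments begin with a run of G (CysGCA with AlaAGC, AlaCGC and AlaTGC) summed to 0.996 (0.980 to 1.01), with 12 loci higher, 7 lower and a median of 0.29, while CysGCA alone stood at 1.50. With the authors' normalised counts 7 of these loci were higher and 12 lower. The tRNAs known as targets of Trm7 in yeast (PheGAA, TrpCCA and LeuTAA) summed to 1.78 (1.75 to 1.82), with 10 of 11 loci higher and a median of 0.93, or 9 of 11 higher with the authors' normalised counts. Over all tRNAs 107 of 149 loci were higher in RPM, with a median of 0.50, and with the authors' normalised counts 78 were higher and 71 lower.

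Mitochondria encode their own tRNAs for the same amino acids, which serve translation inside the organelle. They were measured among the Ensembl noncoding RNAs of the same 2 libraries. They are printed as in GENCODE M21, with the anticodon in capitals, because they are separate genes for phenylalanine, tryptophan and cysteine tRNAs. The anticodon was located as the triplet that follows a pyrimidine and T and precedes a purine in the middle of the gene. The genes lie at chrM:1-68 (plus strand), chrM:4950-5016 (plus strand) and chrM:5192-5257 (minus strand) of GRCm38.
mt-Tf: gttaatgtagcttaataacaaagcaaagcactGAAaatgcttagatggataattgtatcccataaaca
mt-Tw: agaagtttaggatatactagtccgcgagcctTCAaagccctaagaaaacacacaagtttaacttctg
mt-Tc: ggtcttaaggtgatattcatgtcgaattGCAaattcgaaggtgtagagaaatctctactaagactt

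The phenylalanine tRNA mt-Tf had 102 reads in AF25-high against 27 in AF25-low cells, giving a ratio of 3.81 (2.47 to 6.06). The tryptophan tRNA mt-Tw had 405 and 210 reads, a ratio of 1.95 (1.64 to 2.31). The cysteine tRNA mt-Tc had 110 and 138 reads, a ratio whose interval held 1 (0.804, 0.620 to 1.04). The ratio of mt-Tf was 1.96 times that of mt-Tw (1.22 to 3.22) and 4.72 times that of mt-Tc (2.83 to 8.06), and that of mt-Tw was 2.42 times that of mt-Tc (1.77 to 3.31). Phenylalanine thus came first in both compartments, while tryptophan and cysteine were in the opposite order. Both orders come from the same 2 libraries, with 27 reads of mt-Tf in AF25-low cells, so neither is a check of the other. The cytosolic order rests on the most abundant loci. Without them, and without the shared reads assigned to them, PheGAA was 0.932 times TrpCCA and TrpCCA was 1.17 times CysGCA, both intervals holding 1. All 22 mitochondrial tRNAs summed to 1.44 (1.39 to 1.48), with an interval above 1 for 13 and below 1 for 0. A search of the 22 for AACCCCA, the complement of the capitals in AF357425, on both strands found it in 0.

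**Figure D5:**
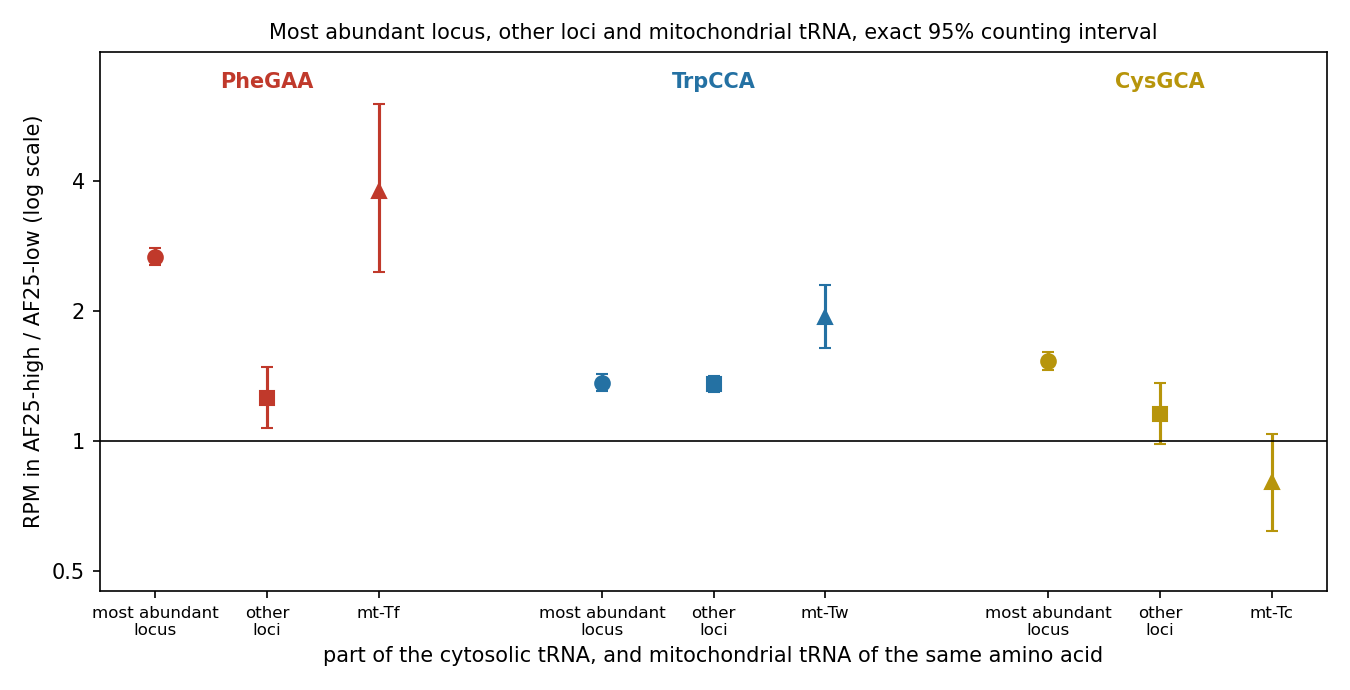
Ratio of AF25-high to AF25-low cells in RPM (vertical log axis) for the most abundant locus of each cytosolic tRNA (circles), the sum of its other loci (squares) and the mitochondrial tRNA of the same amino acid (triangles), with exact 95% counting intervals. The other loci lie between 1.16 and 1.36 for the 3 tRNAs, while the most abundant loci lie at 2.68, 1.37 and 1.54 and the mitochondrial tRNAs at 3.81, 1.95 and 0.804.

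Of the RNAs that act in tRNA maturation or are related to it, Rpph1, the RNA of RNase P, which removes the 5′ leader of tRNA precursors, had 70 reads in AF25-high against 90 in AF25-low cells, a ratio whose interval held 1 (0.784, 0.566 to 1.08). Rmrp, the RNA of the related RNase MRP, which acts on the rRNA precursor, had 6314 and 16903 reads, a ratio of 0.377 (0.366 to 0.388). Rmrp was thus lower in AF25-high cells in RPM, where the 3 tRNAs were higher. TrpCCA was level with the authors' normalised counts (1.01) and below 1 by the tRNA total (0.926).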

How the data were processed

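The authors sequenced small RNA of 1 AF25-high and 1 AF25-low culture on the DNBseq platform, ran sRNAbench with Bowtie on GRCm38 and small RNA databases (versions not given in the sources used here), and assigned each read to 1 locus. Their deposited signal values are read counts divided by a size factor per library and table. The authors' fold changes and p-values in the same tables were not used, and the RNAcentral table was not used. Reads were recovered by division by the smallest value above 0 of a column. 100% of the values in both tables were whole within a relative tolerance of 1e-06. Library totals are medians of reads over the RPM that the study gives per anticodon, taken over the 38 that reached 100 RPM in each library. Members, lists and the rule for named loci (loci with at least 20 reads, the 3 nearest anticodons in log2 ratio, lists of tRNAs) were chosen with earlier results of these data known. The 8 rarer CysGCA loci named or summed were looked at after their values were seen. Ratios have Clopper-Pearson intervals and ratios of ratios exact conditional intervals. 0.5 reads were added for medians over loci and the 2-fold count. Intervals and floors cover counting error only, since reads are not independent molecules. A count test needs replicates and was not run. Alternatives were 4 scalings, other minimum reads, adding 1 read in place of 0.5, omitting the most abundant locus, and medians. Positions come from RefSeq and GENCODE M21, both on GRCm38. The steps were tested on simulated data. The software was scipy 1.17.1, pandas 2.3.3, numpy 2.4.6 and matplotlib 3.10.9 under Python 3.11.15, and the TMM factor came from edgeR 4.0.16 in R 4.3.3.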

Additional observations from a re-analysis of the deposited data

How the results depend on the processing

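No paired analysis was possible because each condition has 1 library, and for the same reason no replicate could be left out. Scaling to the microRNA RPM or a minimum of 20 reads kept every ratio of the 3 tRNAs and of their sum within its counting interval. Scaling within the tRNA table did not. By the median of ratios (the authors' normalised counts) PheGAA was 1.90, TrpCCA 1.01, CysGCA 1.12 and their sum 1.24. By the TMM factor they were 1.91, 1.02, 1.13 and 1.25, and by the tRNA total 1.73, 0.926 (TrpCCA turned below 1), 1.02 and 1.13. Without the most abundant locus PheGAA was 1.26, CysGCA 1.16 and the sum 1.34, and TrpCCA stayed within its interval. The median over loci gave 1.36 for PheGAA and 1.41 for both TrpCCA and the sum. Of the ratios of ratios, PheGAA against TrpCCA turned to 0.932 without the most abundant loci and to 0.961 by medians, PheGAA against CysGCA moved to 1.09 and turned to 0.884, and TrpCCA against CysGCA (0.907) turned to 1.17 without them. The count of loci at least 2-fold higher (1) was 0 by the median of ratios and by the total, and 3 with no minimum of reads.

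Single loci turned below 1 as follows. By the tRNA total chr13.trna988 was 0.924, chr13.trna107 was 0.931, chr11.trna1820 was 0.993, chr11.trna1880 was 0.791 and chr6.trna170 was 0.874. By the median of ratios chr11.trna1880 was 0.865 and chr6.trna170 was 0.956, and by the TMM factor 0.873 and 0.965. In each of these cases the interval of chr13.trna988, chr11.trna1820 or chr6.trna170 held 1. That of chr13.trna107 or chr11.trna1880 lay below 1. The mitochondrial mt-Tc turned to 1.13 when scaled to all Ensembl reads, an alternative chosen after seeing the data. The scalings are constant factors, so the turns follow from how the whole tRNA class is set between the libraries, and which scale is right was not tested. Depth limits the rare loci, 9 of 19 with fewer than 20 reads.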
